A study of Mus musculus with 12 samples.

Results

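The genes described here are 34 genes of cholesterol and fatty acid synthesis, chosen by name from 14907 genes listed in the deposited tables: 5 regulators of the transcription factors SREBP, 7 genes of the mevalonate arm, 11 genes from squalene to cholesterol, the sterol carrier Stard4, and 10 genes that make, lengthen, desaturate or activate fatty acids. All 34 had a value in each of 12 libraries and entered the test, which covered 12385 genes. The libraries held messenger RNA of mesenchymal cells, the connective tissue cells that support the gut epithelium, from the small intestine of C57/Bl6 mice. Cells were cultured to passage 3 and sorted for GFP. They were kept without serum overnight in every group, and 2 µg/ml of E. coli LPS was then given for 6 hours in the LPS groups. The groups were MyD88ko with LPS, MyD88ko untreated, wt with LPS and wt untreated, with 3 libraries each. MyD88ko cells carry the genotype ColVIcre-MyD88F/F-RosamTmG, in which Cre under collagen VI control deletes the floxed Myd88 gene and switches a membrane reporter to GFP, so only cells in which that Cre acted carry the deletion. The wt samples are labelled MyD88F/F-RosamTmG, with no Cre, whereas the design text of the series calls them Cre-positive. A sort for GFP would call for Cre in wt cells too, because Cre switches the reporter to GFP. Should the label hold nonetheless, loss of MyD88 and presence of Cre cannot be told apart wherever genotypes are compared. The labels do not say that replicates came from separate animals, so p-values measure the spread between these libraries, which may be technical.

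Mammalian cells build cholesterol from acetyl-CoA through mevalonate, isoprenoids and squalene, and build long-chain fatty acids from the same precursor. The membrane-bound transcription factors SREBP-1 and SREBP-2 drive these genes: when membrane sterol is low, the escort protein SCAP carries them from the endoplasmic reticulum to the Golgi, where proteases free the active part. Insig proteins hold the complex back when sterol is plentiful, and oxysterols, together with the nuclear receptor LXR, tune the same circuit. LPS comes from the outer membrane of Gram-negative bacteria and binds the TLR4 receptor complex, whose signal runs through MyD88 on one branch and TRIF on the other. The comparisons ask how the synthesis genes stood with and without LPS, in cells with and without MyD88.

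The promoters of 4 members are shown as examples of genes described below: Idi1 and Hmgcs1, which were lower with LPS in wt cells, Srebf2, which was higher, and Elovl6, which was lower in MyD88ko cells. Each is 300 bases long, from 250 before to 50 after the start site, on the plus strand of GRCm38.p6, taken from RefSeq: Idi1 at chr13:8885356-8885655, Hmgcs1 at chr13:119690101-119690400, Srebf2 at chr15:82147019-82147318 and Elovl6 at chr3:129532136-129532435. Capitals mark 3 motifs on either strand: TCACNCCA and the overlapping CACNCCAC, which are letters of the sterol regulatory element, and CCAAT, the box bound by NF-Y, which reads ATTGG on the other strand.
Idi1: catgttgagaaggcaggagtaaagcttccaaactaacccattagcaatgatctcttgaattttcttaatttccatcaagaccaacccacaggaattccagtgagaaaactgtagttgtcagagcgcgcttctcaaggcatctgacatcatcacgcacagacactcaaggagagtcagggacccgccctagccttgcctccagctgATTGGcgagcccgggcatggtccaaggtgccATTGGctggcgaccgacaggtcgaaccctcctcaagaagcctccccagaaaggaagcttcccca
Hmgcs1: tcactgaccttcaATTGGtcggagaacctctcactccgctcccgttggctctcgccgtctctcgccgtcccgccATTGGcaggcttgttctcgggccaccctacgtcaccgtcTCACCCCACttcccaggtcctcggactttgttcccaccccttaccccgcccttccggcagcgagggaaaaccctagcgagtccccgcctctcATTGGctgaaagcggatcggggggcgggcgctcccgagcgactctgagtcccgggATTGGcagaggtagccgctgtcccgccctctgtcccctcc
Srebf2: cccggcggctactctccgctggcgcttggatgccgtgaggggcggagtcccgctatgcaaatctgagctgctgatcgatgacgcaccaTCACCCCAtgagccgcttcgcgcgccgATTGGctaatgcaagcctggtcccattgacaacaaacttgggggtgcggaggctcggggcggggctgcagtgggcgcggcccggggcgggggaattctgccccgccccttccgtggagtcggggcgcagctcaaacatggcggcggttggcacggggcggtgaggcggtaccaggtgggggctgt
Elovl6: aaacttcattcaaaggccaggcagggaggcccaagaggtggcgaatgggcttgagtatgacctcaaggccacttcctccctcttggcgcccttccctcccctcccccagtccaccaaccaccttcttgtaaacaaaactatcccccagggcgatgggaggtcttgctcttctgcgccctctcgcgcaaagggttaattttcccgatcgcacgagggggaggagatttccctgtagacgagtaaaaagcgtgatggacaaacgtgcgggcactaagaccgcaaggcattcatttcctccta
Of the 34 members, 27 had a promoter in the RefSeq table, with 35 promoters in all, and the table as a whole held 32851. TCACNCCA stood in 8.57% of the members' promoters and in 4.36% of all promoters; the members were Hmgcs1, Msmo1 and Srebf2. The longer TCACNCCAC, which contains it, was present in the Hmgcs1 promoter, where it began at base -137 from the start site, and in 1.24% of all promoters. In the Srebf2 promoter, TCACNCCA began at base -162. CACNCCAC, which overlaps both, stood in 8.57% of the members' promoters (Acat2, Hmgcs1 and Insig1) and in 6.24% of all. CCAAT stood in 65.7% of the members' promoters and in 37.4% of all; Hmgcs1 had 4 copies, Idi1 had a pair at -45 and -14, and Srebf2 had 1. GGGCGG, the core of the Sp1 site, stood in 74.3% of the members' promoters against 35.7% of all, and CACGTG, an E-box, in 20.0% against 7.15%. GGGANTTCC, a NF-κB motif, stood in 0 of 35 member promoters and in 1.68% of all. These matches describe letters in a window and were not tested as binding sites.

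Normalized totals ran from 3599944 to 4320551 per library, and depth, estimated from the rounding steps of low values, was about 2.5 to 5.3 megareads. Values are read counts per gene that the authors normalized and rounded, given here as normalized values. Levels are compared between libraries and not between genes. Myd88 had values of 24, 22 and 5 in MyD88ko LPS, 14, 8 and 10 in MyD88ko untreated, 171, 204 and 213 in wt LPS and 99, 98 and 103 in wt untreated libraries, which fits the labels. All 10 mesenchymal markers were measured. Their summed value was 130166 to 139705 in MyD88ko LPS, 88037 to 109249 in MyD88ko untreated, 69934 to 116124 in wt LPS, and 51741, 100347 and 43257 in wt untreated replicates 1, 2 and 3. The wt untreated libraries stood apart from each other. Their epithelial markers summed to 394, 8 and 981. The sums were 4 to 16 in MyD88ko LPS, 8 to 9 in MyD88ko untreated and 22 to 25 in wt LPS libraries. Singly, in wt untreated replicates 1, 2 and 3, Cdh1 had 3, 0 and 719 and Krt18 had 1, 0 and 68. In the same order, Krt19 had 166, 0 and 62, Cldn4 had 213, 7 and 122, and Epcam had 11, 1 and 10. The sums of replicates 1 and 3 thus came mainly from different markers. Of 8 epithelial markers, 5 had a value, and Krt8, Cldn7 and Vil1 were not listed. Cdh1 and Krt18 had no value in MyD88ko LPS libraries, nor Krt18 in wt LPS libraries, and added nothing to those sums. Fabp4, the only 1 of 5 adipocyte markers with a value, had 1 to 23 in MyD88ko LPS, 12 to 65 in MyD88ko untreated, 38 to 54 in wt LPS and 150 to 276 in wt untreated libraries. Hepatocyte markers, 3 of 5 with a value, summed to 4 to 19 in MyD88ko LPS against 112 to 170 in MyD88ko untreated, and to 3 to 13 in wt LPS against 103 to 256 in wt untreated libraries. Leukocyte markers summed to 15 to 53 and glial and neuronal markers to 7 to 44. Endothelial markers had no value in wt LPS libraries and summed to 1 to 10 in the others, with Tek also missing in MyD88ko LPS. The part of these other markers in the results was not tested. All untreated libraries carry lower library codes than all LPS libraries, so the effects of LPS and of library order cannot be told apart. Within each treatment, all MyD88ko libraries carry lower codes than all wt libraries. Genotype and library order therefore cannot be told apart either. In wt untreated replicate 2, whose epithelial sum of 8 was within the MyD88ko range, 27 of 34 members had their lowest wt untreated value, as did 31.8% of all genes tested. The calls, and most other member values, that rest on wt untreated libraries are therefore also given with replicate 2 as the only wt untreated library, where that group's spread is assumed to equal that of the others.

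With LPS, wt cells had lower values of 8 members and a higher value of 1, and MyD88ko cells had a lower value of 1, by limma at an adjusted p under 0.05 over all genes. The 9 members called in wt are 26.5% of 34, beside 19.2% of all genes tested; lower calls were 23.5% of members, beside 9.66% of all genes, and the higher call was 2.94%, beside 9.55%. In MyD88ko cells the call of Idi1 is 2.94% of members, beside 5.98% of all genes (2.58% higher and 3.4% lower). The median log2 fold change of the members was -0.16 in MyD88ko and -0.40 in wt, and that of all genes was 0.004 in MyD88ko and 0.013 in wt; 18 members were below 0 in MyD88ko cells and 23 in wt cells. The MyD88ko median was 0.05 without MyD88ko untreated replicate 1, -0.27 without MyD88ko LPS replicate 1, and -0.07 and -0.03 without MyD88ko LPS replicates 2 and 3. The wt median was -0.10 without wt LPS replicate 2, -0.22 without wt untreated replicate 3 and -0.62 without wt untreated replicate 2. The LPS and untreated groups did not overlap for 4 members in MyD88ko cells (2 higher and 2 lower, beside 12.2% and 13.3% of all genes) and for 13 members in wt cells (2 higher and 11 lower, beside 17.4% in each direction). A bulk value cannot tell fewer cells of a type from less RNA per cell. With wt untreated replicate 2 alone, the median in wt cells was 0.08, and 14 members were below 0. The lower level of the members in wt cells with LPS, taken over all 3 wt LPS libraries, was thus not seen against replicate 2 by itself, apart from single genes given below. The wt LPS libraries differed here. By median deviation from each gene's mean, wt LPS replicate 2 (-0.16) lay below wt untreated replicate 2 (0.00). The other wt LPS libraries, replicates 1 (0.18) and 3 (0.36), lay above it.

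**Figure D1:**
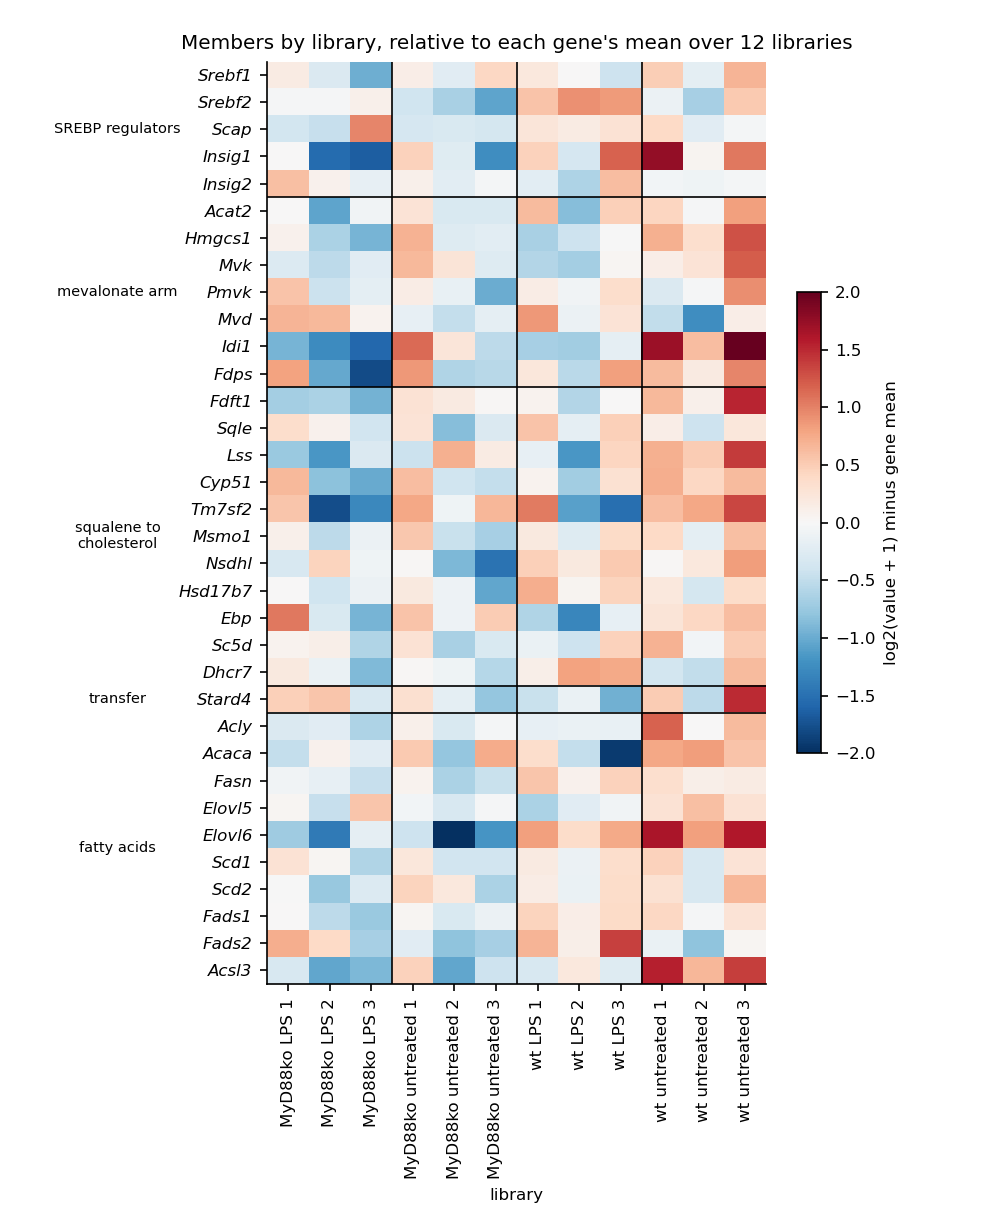
The 34 genes (rows, ordered by role) in 12 libraries (columns), coloured by log2(value + 1) minus the gene's mean over all libraries, with colours ending at 2 either way. The columns of wt untreated replicates 1 and 3 are the reddest, with median deviations of 0.42 and 0.63, while wt untreated replicate 2 is at 0.00.

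Of the 5 SREBP regulators, 1 was called higher with LPS in wt cells, beside 9.55% of all genes, and 0 in MyD88ko cells, beside 5.98% called in either direction. That gene was Srebf2, which encodes SREBP-2, the main driver of cholesterol synthesis genes. Srebf2 (chromosome 15, 82147266 to 82205376, plus strand, mm10) had values of 133, 133 and 146 in MyD88ko LPS against 103, 86 and 65 in MyD88ko untreated libraries, and of 203, 256 and 246 in wt LPS against 125, 85 and 195 in wt untreated libraries. LPS libraries stood above untreated libraries without overlap in both genotypes. In wt cells Srebf2 rose 1.83-fold (log2 fold change 0.87 ± 0.28 SE, limma adjusted p = 0.0326). In MyD88ko cells the log2 fold change was 0.71 ± 0.28 (adjusted p = 0.136), which misses the threshold. The call in wt was larger with wt untreated replicate 2 alone (1.45, adjusted p = 0.0139). It was lost without any 1 of the 3 wt LPS libraries (adjusted p = 0.0509, 0.0963 and 0.0912 without replicates 1, 2 and 3), and without wt untreated replicate 1 (0.0804) or 2 (0.172).

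Srebf1, which encodes SREBP-1, the form tied mainly to fatty acid genes, had 205, 150 and 93 in MyD88ko LPS, 201, 157 and 243 in MyD88ko untreated, 211, 184 and 137 in wt LPS, and 257, 159 and 295 in wt untreated libraries. The groups overlapped in each comparison, and the log2 fold change with LPS was -0.47 ± 0.30 in MyD88ko cells (adjusted p = 0.383). Scap, the escort of both factors, ranged from 91 to 248 over the 12 libraries, and Insig2, a retention factor, from 150 to 355. Insig1, a retention factor that is itself a target of SREBP, had 37, 12 and 11 in MyD88ko LPS, 51, 31 and 15 in MyD88ko untreated, 51, 29 and 84 in wt LPS and 127, 38 and 77 in wt untreated libraries. Its values overlapped between genotypes, with a log2 fold change of -1.29 ± 0.55 in MyD88ko against wt untreated (adjusted p = 0.257) and -1.49 ± 0.55 in MyD88ko against wt LPS (adjusted p = 0.244). Srebf2 itself was lower in MyD88ko than in wt with LPS without overlap, at -0.76 ± 0.28 (adjusted p = 0.234), and at -0.61 ± 0.28 in MyD88ko against wt untreated (adjusted p = 0.293). The untreated genotype values with wt untreated replicate 2 alone were -0.39 for Insig1 (adjusted p = 0.972) and -0.03 for Srebf2 (adjusted p = 0.998). No regulator passed the test between genotypes.

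In the mevalonate arm, Idi1 was the member with the largest fall. Idi1, the isomerase that makes the reactive isoprenoid dimethylallyl diphosphate (chromosome 13, 8885501 to 8892451, plus strand), had 38, 30 and 24 in MyD88ko LPS against 163, 87 and 51 in MyD88ko untreated libraries, and 46, 45 and 65 in wt LPS against 243, 113 and 320 in wt untreated libraries. Every LPS library lay below every untreated library of its genotype. Idi1 fell 2.92-fold in MyD88ko cells (log2 fold change -1.54 ± 0.40, limma adjusted p = 0.0248) and 3.97-fold in wt cells (-1.99 ± 0.40, adjusted p = 0.00161). It is the only member called in both. The wt call held without any single library. With wt untreated replicate 2 alone the wt log2 fold change was -1.13 (adjusted p = 0.233), and all 3 wt LPS values still lay below that library's 113. The MyD88ko call was lost without MyD88ko LPS replicate 2 (adjusted p = 0.0681) or 3 (0.083) and without MyD88ko untreated replicate 1 (0.151) or 2 (0.0765). Between genotypes, Idi1 was at -1.19 ± 0.40 untreated (adjusted p = 0.138; -0.33 and adjusted p = 0.967 with wt untreated replicate 2 alone) and at -0.75 ± 0.40 with LPS (adjusted p = 0.476).

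Hmgcs1, the synthase that makes HMG-CoA (chromosome 13, 119690462 to 119708086, plus strand), had 581, 350 and 286 in MyD88ko LPS against 884, 457 and 472 in MyD88ko untreated libraries, and 348, 410 and 542 in wt LPS against 897, 687 and 1322 in wt untreated libraries. The groups overlapped in MyD88ko cells and not in wt cells. Hmgcs1 fell 2.19-fold in wt cells (log2 fold change -1.13 ± 0.30, limma adjusted p = 0.0135), while in MyD88ko cells the value was -0.57 ± 0.30 (adjusted p = 0.296). The wt call was lost without wt LPS replicate 1 (0.072) or wt untreated replicate 3 (0.0713); with wt untreated replicate 2 alone it was -0.69 (adjusted p = 0.36), with all 3 wt LPS values below that library's 687. Mvk, mevalonate kinase, had 118, 99 and 122 in MyD88ko LPS against 225, 172 and 119 in MyD88ko untreated libraries, and 95, 89 and 147 in wt LPS against 157, 173 and 331 in wt untreated libraries. Here too the groups overlapped in MyD88ko cells only. Mvk fell 1.93-fold in wt cells (-0.95 ± 0.30, adjusted p = 0.0332). That call was lost without wt LPS replicate 1 (0.114) or 2 (0.115) or wt untreated replicate 3 (0.185), and with wt untreated replicate 2 alone the value was -0.68 (adjusted p = 0.335).

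Mvd, the decarboxylase between mevalonate and the isoprenoids, had higher values with LPS. It had 292, 287 and 192 in MyD88ko LPS against 163, 131 and 162 in MyD88ko untreated libraries, and 333, 169 and 221 in wt LPS against 130, 77 and 200 in wt untreated libraries. The groups did not overlap in MyD88ko cells and overlapped by the 169 of wt LPS replicate 2 in wt cells. The log2 fold changes were 0.74 ± 0.31 (adjusted p = 0.176) in MyD88ko and 0.87 ± 0.31 (adjusted p = 0.0548) in wt cells, both short of the threshold. Mvd passed it in wt cells without wt LPS replicate 2 (1.10, adjusted p = 0.0332), without wt untreated replicate 3 (1.20, adjusted p = 0.0127), without MyD88ko LPS replicate 3 (adjusted p = 0.0412) and with wt untreated replicate 2 alone (1.58, adjusted p = 0.0158). The other 3 genes of the arm did not pass in any comparison: Acat2, an acetyl-CoA acetyltransferase, ranged from 43 to 161, Pmvk, phosphomevalonate kinase, from 18 to 71, and Fdps, which makes farnesyl diphosphate, from 41 to 283. In all, 3 of 7 mevalonate genes fell in wt cells (group median -0.43) beside 9.66% of all genes, and 1 of 7 in MyD88ko cells (group median -0.56), beside 3.4%. Against wt untreated replicate 2 alone, 4 of the 7 were below 0 in wt cells and the group median was -0.01.

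**Figure D2:**
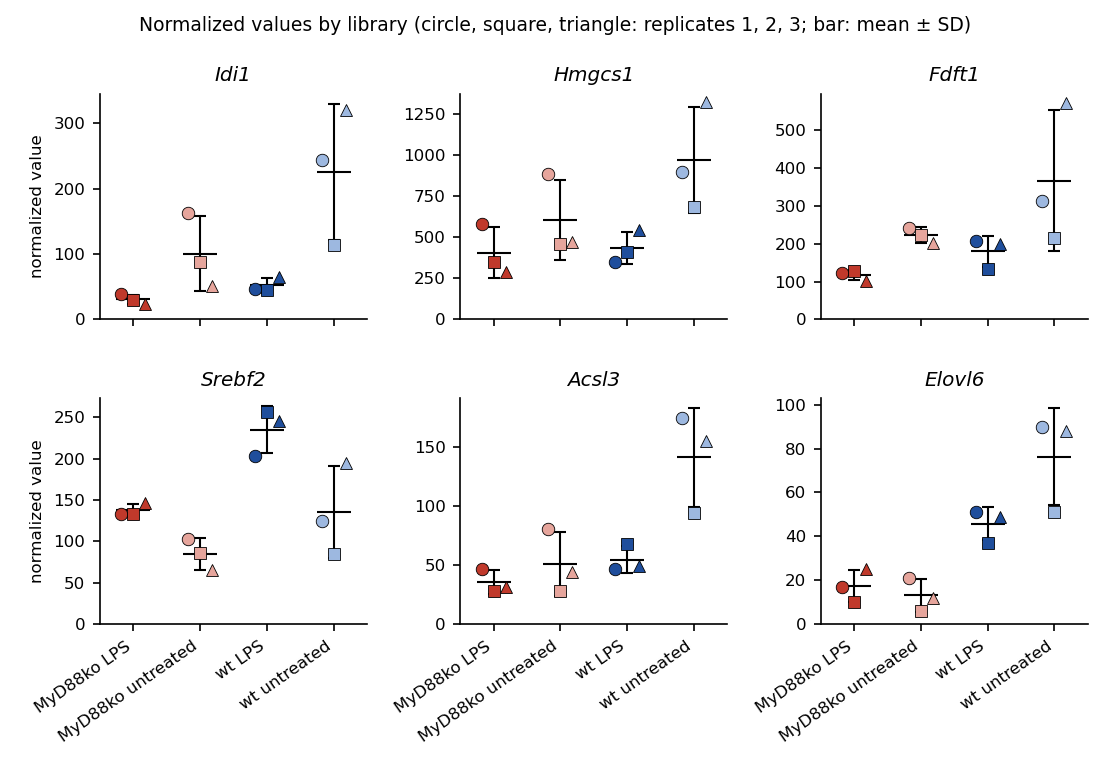
Normalized values of 6 members in each library, by group, with the mean and SD of the 3 libraries as bars; the vertical axes start at 0 and differ between panels. Idi1 is at 24 to 65 in all LPS libraries and at 51 to 320 in untreated ones, and Elovl6 is at 6 to 25 in MyD88ko libraries and at 37 to 90 in wt ones.

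Of the 11 genes from squalene to cholesterol, 1 fell in wt cells with LPS, beside 9.66% of all genes, and 0 were called in the other comparisons. Of the 11, 6 were above 0 in wt cells with wt untreated replicate 2 alone, with a group median of 0.04. Fdft1, squalene synthase, the first enzyme committed to sterols, had 123, 128 and 102 in MyD88ko LPS against 243, 224 and 201 in MyD88ko untreated libraries, and 208, 132 and 199 in wt LPS against 313, 214 and 574 in wt untreated libraries. No LPS library reached an untreated one of its genotype. Fdft1 fell 1.91-fold in wt cells (log2 fold change -0.93 ± 0.29, limma adjusted p = 0.0285). The size was nearly the same in MyD88ko cells, at -0.92 ± 0.29, where the adjusted p of 0.0677 missed the threshold. The MyD88ko value passed without wt untreated replicate 2 (0.0374) or 3 (0.0254) or both 1 and 3 (0.0259), libraries that enter that comparison only through the shared estimate of spread. The wt call was lost without wt LPS replicate 2 (0.129) or wt untreated replicate 1 (0.0538) or 3 (0.176), and with wt untreated replicate 2 alone the value was -0.28 (adjusted p = 0.689).

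Later enzymes gave a mixed picture with LPS in wt cells. Ebp, a sterol isomerase, had 471, 184 and 119 in MyD88ko LPS, 339, 211 and 325 in MyD88ko untreated, 150, 91 and 202 in wt LPS and 271, 304 and 349 in wt untreated libraries. Its wt groups did not overlap, with a log2 fold change of -1.12 ± 0.39 (adjusted p = 0.0571), and it passed without MyD88ko LPS replicate 1 (0.00816) or 3 (0.0239) or wt LPS replicate 3 (0.0381); with wt untreated replicate 2 alone it was -1.11 (adjusted p = 0.317). MyD88ko LPS replicate 1 was the highest of the 12 libraries for Ebp. Lss, which closes the ring of lanosterol, had 15, 11 and 21 in MyD88ko LPS, 19, 43 and 29 in MyD88ko untreated, 23, 11 and 35 in wt LPS and 43, 37 and 70 in wt untreated libraries. It too was lower in wt LPS without overlap (-1.17 ± 0.47, adjusted p = 0.0848), and passed only without wt LPS replicate 3 (-1.53, adjusted p = 0.0464); with wt untreated replicate 2 alone it was -0.80 (adjusted p = 0.556). Cyp51, lanosterol demethylase, had 615, 361 and 722 in wt LPS against 968, 777 and 906 in wt untreated libraries, without overlap (-0.69 ± 0.40, adjusted p = 0.252); with wt untreated replicate 2 alone it was -0.52 (adjusted p = 0.697). Tm7sf2, a sterol reductase, had 24, 4 and 6 in MyD88ko LPS, 28, 15 and 26 in MyD88ko untreated, 34, 7 and 5 in wt LPS and 25, 28 and 42 in wt untreated libraries; the first replicate of each LPS group was within the untreated range. It passed in wt without wt LPS replicate 1 (-2.20, adjusted p = 0.0308), on values of 4 to 42 over the 12 libraries, and was at -1.29 (adjusted p = 0.502) with wt untreated replicate 2 alone. Sqle, squalene epoxidase, ranged from 91 to 247, Msmo1 and Sc5d, sterol oxidases, from 203 to 489 and from 98 to 252, and Hsd17b7, a sterol ketoreductase, from 58 to 199; their LPS and untreated groups overlapped in both genotypes.

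Between genotypes, all 11 of these genes were below 0 in MyD88ko against wt untreated, with a group median of -0.46, and 0 passed the test. That common sign rests on wt untreated replicates 1 and 3: with replicate 2 alone, 6 were below 0 and 5 above it (Fdft1, Sqle, Msmo1, Hsd17b7 and Dhcr7), with a median of -0.09. Nsdhl, a sterol dehydrogenase, came nearest, with 64, 33 and 22 in MyD88ko untreated against 64, 73 and 113 in wt untreated libraries (log2 fold change -1.14 ± 0.36, limma adjusted p = 0.114). Those groups touch at 64, and Nsdhl passed without MyD88ko untreated replicate 1 (-1.55, adjusted p = 0.0327); with wt untreated replicate 2 alone its adjusted p was 0.715. Fdft1 was at -0.60 ± 0.29 (adjusted p = 0.323), and at 0.05 (adjusted p = 0.996) with wt untreated replicate 2 alone. With LPS, Fdft1 was at -0.58 ± 0.29 (adjusted p = 0.433) and Dhcr7, the last reductase before cholesterol, at -0.83 ± 0.42 (adjusted p = 0.446), with 33, 26 and 15 in MyD88ko LPS against 31, 51 and 49 in wt LPS libraries. Stard4, which moves sterol between membranes, had 37, 39 and 21 in MyD88ko LPS, 33, 23 and 15 in MyD88ko untreated, 19, 24 and 13 in wt LPS and 38, 18 and 76 in wt untreated libraries. Its groups overlapped with LPS, and its wt log2 fold change of -1.01 ± 0.49 (adjusted p = 0.16) passed only without wt untreated replicate 2 (-1.52, adjusted p = 0.0414). Its value was 0.01 (adjusted p = 0.995) with wt untreated replicate 2 alone.

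**Figure D3:**
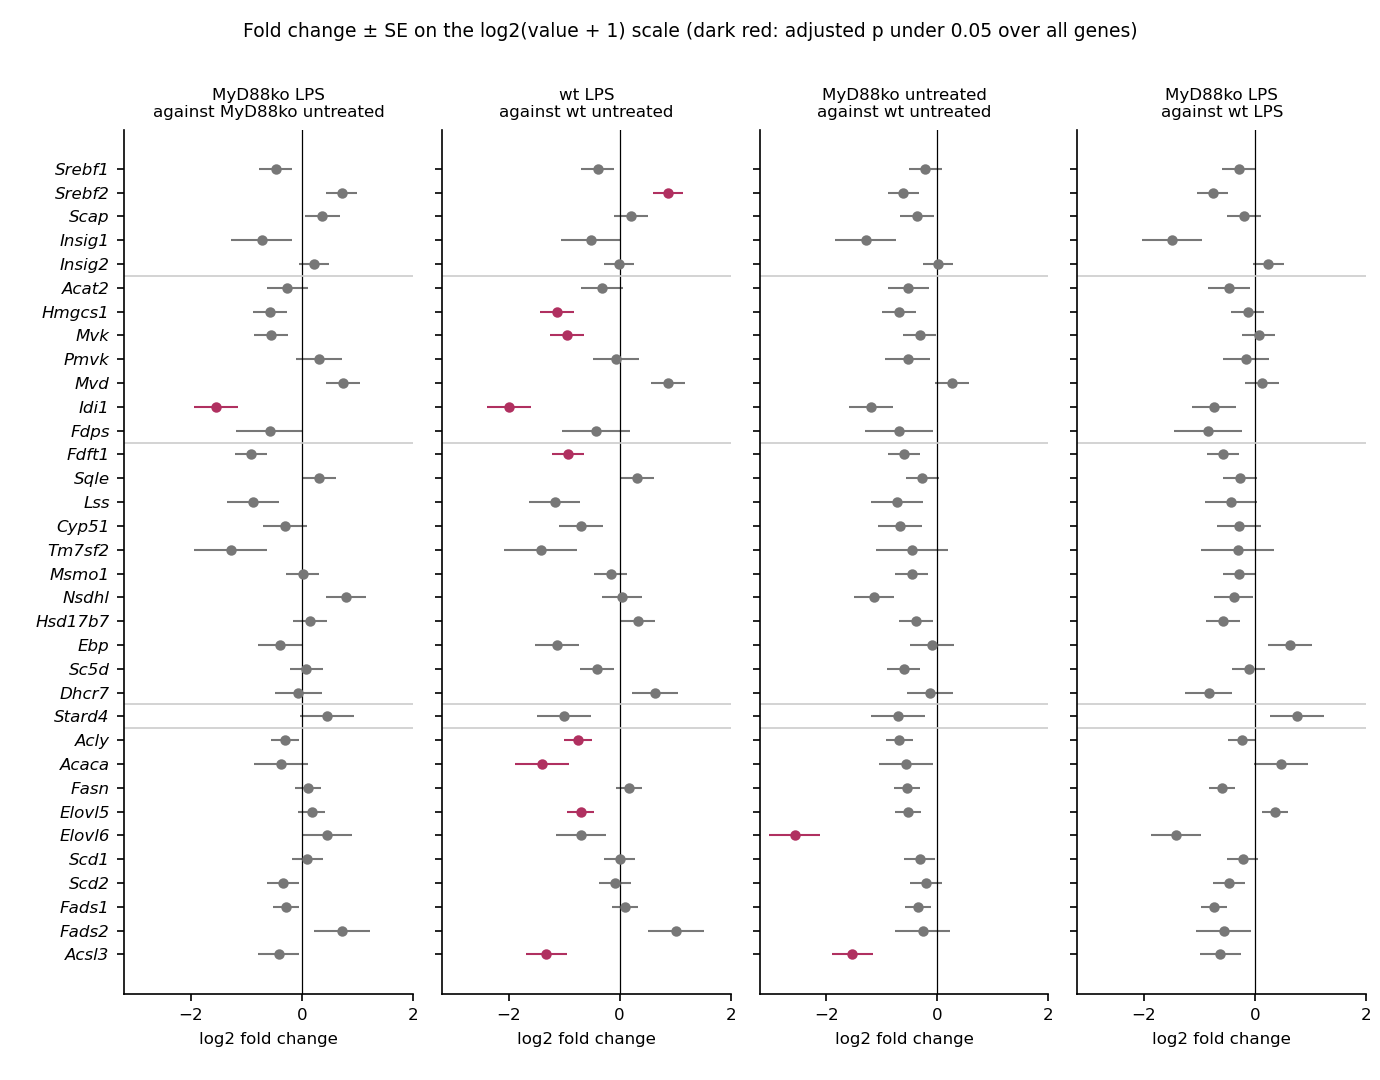
Log2 fold change ± SE of each member in 4 comparisons, on the log2(value + 1) scale, with members called at an adjusted p under 0.05 in dark red and grey lines between the roles. With LPS, 1 member is called in MyD88ko and 9 in wt cells, and MyD88ko against wt has 2 called untreated and 0 with LPS.

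Among the 10 fatty acid genes, 4 fell in wt cells with LPS, beside 9.66% of all genes, and 0 passed in MyD88ko cells, beside 5.98% called in either direction. Taking wt untreated replicate 2 alone, the group median in wt cells was 0.05, with 5 of the 10 above 0. Acsl3, an acyl-CoA synthetase of lipid droplets (chromosome 1, 78657825 to 78707743, plus strand), had 47, 28 and 31 in MyD88ko LPS against 81, 28 and 44 in MyD88ko untreated libraries, and 47, 68 and 49 in wt LPS against 175, 94 and 155 in wt untreated libraries. Every wt untreated library was above every other library. Acsl3 fell 2.51-fold with LPS in wt cells (log2 fold change -1.33 ± 0.37, limma adjusted p = 0.0155) and was 2.90-fold lower in MyD88ko than in wt untreated cells (-1.54 ± 0.37, adjusted p = 0.0352). Both rest on the same wt untreated libraries. The LPS call was lost without wt LPS replicate 1 (0.0639) or 3 (0.0529) or wt untreated replicate 1 (0.0786) or 3 (0.0571), and the genotype call without MyD88ko untreated replicate 2 (0.197) or 3 (0.157), wt LPS replicate 1 (0.0503), or wt untreated replicate 1 (0.202) or 3 (0.117). With wt untreated replicate 2 alone the LPS value was -0.79 (adjusted p = 0.438) and the genotype difference had an adjusted p of 0.741, and the 94 of that library stayed above all 3 wt LPS and all 3 MyD88ko untreated values.

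Acly, which makes cytosolic acetyl-CoA from citrate, had 235, 244 and 186 in MyD88ko LPS, 309, 231 and 280 in MyD88ko untreated, 255, 261 and 259 in wt LPS and 649, 289 and 443 in wt untreated libraries. It fell 1.69-fold in wt cells (log2 fold change -0.75 ± 0.25, limma adjusted p = 0.0399), with groups that did not overlap. The 3 wt LPS values were close together and the wt untreated ones far apart, and with replicate 2 alone the value was -0.16 (adjusted p = 0.809). The call was lost without MyD88ko untreated replicate 3, without any wt LPS library and without wt untreated replicate 1 or 3 (adjusted p = 0.0533 to 0.228). Acaca, acetyl-CoA carboxylase, the rate-limiting step of fatty acid synthesis, had 26, 39 and 31 in MyD88ko LPS, 53, 21 and 62 in MyD88ko untreated, 47, 26 and 9 in wt LPS and 63, 66 and 55 in wt untreated libraries. It fell 2.65-fold in wt cells (-1.40 ± 0.49, adjusted p = 0.0488), without overlap, and wt LPS replicate 3 was the lowest of all libraries. The call was lost without MyD88ko LPS replicate 2, MyD88ko untreated replicate 1 or 3, wt LPS replicate 2 or 3 and any wt untreated library (adjusted p = 0.0556 to 0.259); with wt untreated replicate 2 alone the value was -1.51 (adjusted p = 0.247). Unlike most members, Acaca was highest in wt untreated replicate 2.

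Elovl5, an elongase of polyunsaturated fatty acids, had 1473, 1044 and 2121 in MyD88ko LPS, 1392, 1148 and 1422 in MyD88ko untreated, 929, 1224 and 1375 in wt LPS and 1752, 2193 and 1764 in wt untreated libraries. It fell 1.63-fold in wt cells (log2 fold change -0.70 ± 0.24, limma adjusted p = 0.0426), without overlap, and it too was highest in wt untreated replicate 2. The call was lost without any MyD88ko untreated or wt untreated library and without wt LPS replicate 1 or 2 (adjusted p = 0.0516 to 0.189), and with wt untreated replicate 2 alone it was -0.92 (adjusted p = 0.114). In MyD88ko cells the groups overlapped, and no fatty acid gene passed the threshold: the smallest adjusted p were those of Fads2 (0.72 ± 0.50, adjusted p = 0.442) and Fads1 (-0.29 ± 0.23, adjusted p = 0.508), the delta-6 and delta-5 desaturases. Fads2 had 28, 22 and 10 in MyD88ko LPS, 14, 9 and 10 in MyD88ko untreated, 27, 18 and 44 in wt LPS and 15, 9 and 17 in wt untreated libraries. The wt groups of Fads2 did not overlap, LPS being higher, at a log2 fold change of 1.02 ± 0.50 (adjusted p = 0.171; 1.53 and adjusted p = 0.23 with wt untreated replicate 2 alone). Fasn, fatty acid synthase, ranged from 125 to 286, and the stearoyl-CoA desaturases Scd1 and Scd2 from 89 to 186 and from 348 to 931; their LPS and untreated groups overlapped in both genotypes.

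Elovl6, the elongase that takes palmitate to stearate (chromosome 3, 129532355 to 129638495, plus strand), carried the largest difference between genotypes. It had 17, 10 and 25 in MyD88ko LPS, 21, 6 and 12 in MyD88ko untreated, 51, 37 and 49 in wt LPS and 90, 51 and 88 in wt untreated libraries. Every MyD88ko library was below every wt library. Elovl6 was 5.95-fold lower in MyD88ko than in wt untreated cells (log2 fold change -2.57 ± 0.45, limma adjusted p = 0.00391), and this call held without any single library. With wt untreated replicate 2 alone the log2 fold change was -2.05 and the adjusted p was 0.385. With LPS, MyD88ko cells were at -1.42 ± 0.45 (adjusted p = 0.161) relative to wt cells. Fads1 had 240, 165 and 142 in MyD88ko LPS against 324, 261 and 312 in wt LPS libraries, without overlap (-0.74 ± 0.23, adjusted p = 0.144), and was called without MyD88ko LPS replicate 1 (-0.96, adjusted p = 0.0458). In MyD88ko untreated against wt untreated, all 10 fatty acid genes were below 0, with a group median of -0.53. Of the 10, 7 were below 0 with wt untreated replicate 2 alone and 3 above it (Scd1, Scd2 and Fads2), with a median of -0.28.

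Over all members, MyD88ko against wt gave 2 calls untreated, Elovl6 and Acsl3, both lower, and 0 with LPS. The 2 are 5.88% of members, beside 1.88% of all genes (0.791% higher and 1.09% lower), and the 0 stands beside 1.49% of all genes (0.452% higher and 1.04% lower). At an unadjusted limma p under 0.05 there were 10 of 34 members untreated, beside 1923 of 12385 genes. With LPS there were 5, beside 1486 of 12385. The median log2 fold change was -0.53 untreated, with 32 of 34 members below 0, and -0.31 with LPS, with 27 below 0, beside medians of 0.00 and -0.001 over all genes. The untreated median was -0.31 without wt untreated replicate 3, and that with LPS was -0.51 without MyD88ko LPS replicate 1 and -0.50 without wt LPS replicate 2. Groups did not overlap for 5 members untreated (Scap, Fasn, Elovl5, Elovl6 and Acsl3, all lower, beside 9.89% of all genes; 10.5% were higher) and for 8 with LPS (Srebf2, Idi1, Fdft1, Hsd17b7, Acly, Fasn, Elovl6 and Fads1, all lower, beside 8.31%; 7.54% were higher). Without wt untreated replicate 2, which is the lowest wt untreated library for most members, the untreated calls numbered 4, with Idi1 (-1.62, adjusted p = 0.0276) and Acly (-0.98, adjusted p = 0.0287) added. Calls over all genes rose as well, to 412 of 12385 from 233. With replicate 2 alone the untreated median was -0.09 and 22 members were below 0. The untreated comparison shares its wt libraries with the LPS comparison in wt cells, so the 2 sets of values are not independent.

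**Figure D4:**
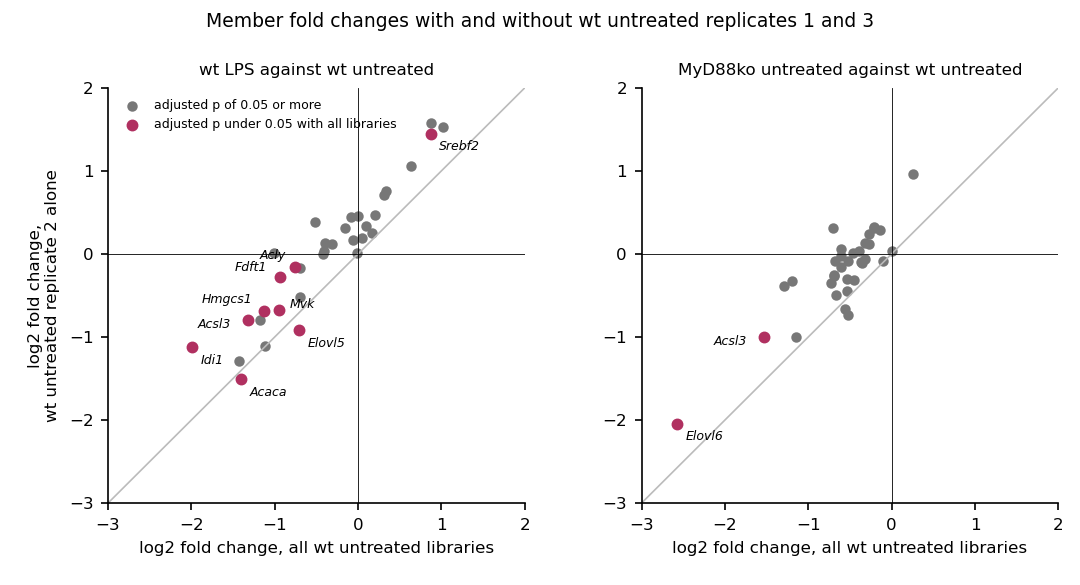
Log2 fold change of each member with all 3 wt untreated libraries (horizontal) and with wt untreated replicate 2 alone (vertical), for wt LPS against wt untreated and MyD88ko untreated against wt untreated; the grey line marks equal values. Most points lie above the line, and the median moves to 0.08 from -0.40 in the first and to -0.09 from -0.53 in the second.

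The difference of the LPS responses, MyD88ko minus wt, was tested for each member and called for 0 of 34, beside 0.0161% of all genes, so the larger number of calls in wt is not shown to be a difference between genotypes. At an unadjusted p under 0.05, 2 of 34 members differed, beside 1137 of 12385 genes tested. They were Elovl5 (0.88 ± 0.34, limma adjusted p = 0.401) and Stard4 (1.46 ± 0.69, adjusted p = 0.538). With wt untreated replicate 2 alone, Elovl5 was at 1.09 and Stard4 at 0.44. For Idi1 the difference was 0.44 ± 0.56 (adjusted p = 0.834), and for Hmgcs1 0.56 ± 0.43 (adjusted p = 0.717); with wt untreated replicate 2 alone these were -0.42 (adjusted p = 0.926) and 0.12 (adjusted p = 0.977). The median over members was 0.17, and -0.14 with wt untreated replicate 2 alone. Its sign also depended on single libraries: leaving out 1 at a time gave medians between -0.04, without wt LPS replicate 2, and 0.37, without MyD88ko LPS replicate 2, and 0.00 without MyD88ko LPS replicate 1.

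The level of the synthesis genes varied widely within groups. The median deviation from each gene's mean, on the log2 scale, was 0.02, -0.45 and -0.42 in MyD88ko LPS, 0.25, -0.31 and -0.37 in MyD88ko untreated, 0.18, -0.16 and 0.36 in wt LPS, and 0.42, 0.00 and 0.63 in wt untreated replicates 1, 2 and 3. The ranges of all 4 groups overlapped, and wt untreated replicates 1 and 3 were the highest of all. Of the 34 members, 14 had their highest value of all 12 libraries in wt untreated replicate 3 and 7 in wt untreated replicate 1. Those are also the libraries with epithelial sums of 981 and 394, which came mainly from different markers. Whether epithelial RNA, if present, carried part of the members' signal was not tested. Against wt untreated replicate 2, all 3 wt LPS libraries were lower for 11 members (Hmgcs1, Mvk, Idi1, Fdft1, Lss, Cyp51, Ebp, Acly, Acaca, Elovl5 and Acsl3) and higher for 10 (Srebf2, Scap, Mvd, Sqle, Hsd17b7, Dhcr7, Scd1, Scd2, Fads1 and Fads2). All 3 MyD88ko untreated libraries were below it for 7 (Scap, Nsdhl, Acaca, Fasn, Elovl5, Elovl6 and Acsl3) and above it for 1 (Mvd). The share of all genes lying wholly on either side of that library was not computed. These counts are therefore not read as particular to the members.

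**Figure D5:**
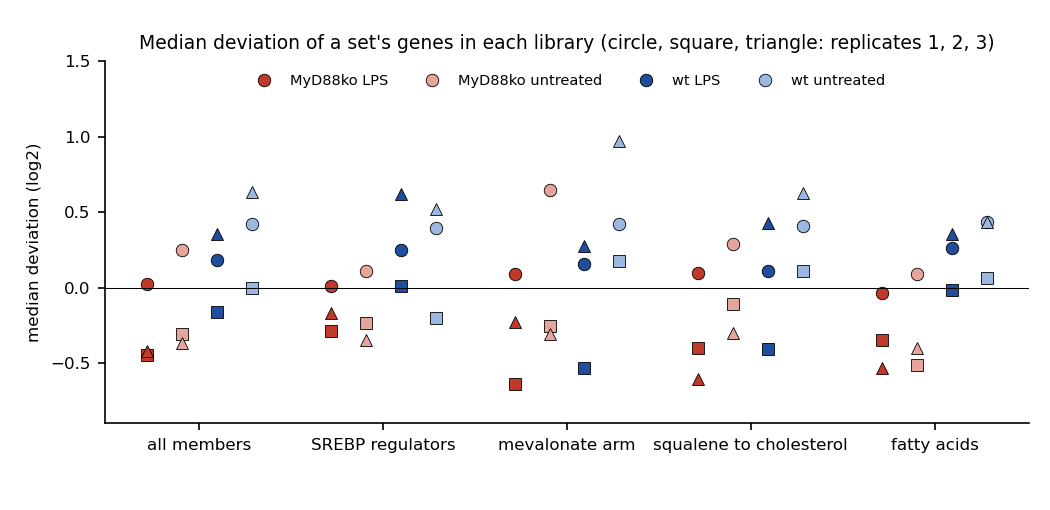
Median over the genes of a role of log2(value + 1) minus the gene's mean over 12 libraries, 1 point per library. For all members the wt untreated libraries are at 0.42, 0.00 and 0.63 (replicates 1, 2 and 3), and the MyD88ko LPS libraries at 0.02, -0.45 and -0.42.

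The neighbouring genes of lipid metabolism, 97 genes in 6 lists, gave calls in both directions with LPS in wt cells. Over all genes tested, 19.2% were called there (9.55% higher and 9.66% lower), and 5.98% with LPS in MyD88ko cells. In MyD88ko against wt, 1.88% were called untreated and 1.49% with LPS. The list counts below stand beside these shares and were not tested against them. Of 9 tested genes of sterol synthesis outside the members, 1 was called: Por, the reductase that feeds electrons to CYP51 and squalene epoxidase, with 395, 358 and 273 in wt LPS against 129, 133 and 179 in wt untreated libraries (log2 fold change 1.21 ± 0.31, limma adjusted p = 0.00895). Of 11 genes of SREBP processing and sterol-regulated protein turnover, 4 fell in wt cells: Faf2 (-0.76 ± 0.22, adjusted p = 0.0194), Pgrmc1 (-0.78 ± 0.24, adjusted p = 0.0259), Mbtps2, the site-2 protease that frees SREBP (-0.75 ± 0.25, adjusted p = 0.0408), and Rnf139, a ubiquitin ligase (-0.73 ± 0.25, adjusted p = 0.0451). In MyD88ko cells 1 fell, Tmem97 (-0.99 ± 0.25, adjusted p = 0.0223).

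Of 18 genes of sterol uptake, storage and efflux, 1 rose and 2 fell in wt cells with LPS, beside 9.55% and 9.66% of all genes. Nr1h2, which encodes LXRβ, had 530, 276 and 249 in wt LPS against 63, 146 and 92 in wt untreated libraries, without overlap (log2 fold change 1.80 ± 0.34, limma adjusted p = 0.000965). Mylip, a ubiquitin ligase induced by LXR, had 10, 35 and 2 in wt LPS against 91, 42 and 53 in wt untreated libraries (-2.50 ± 0.67, adjusted p = 0.0127), and Soat1, which esterifies cholesterol, was at -0.67 ± 0.23 (adjusted p = 0.0474). Apoe, the lipoprotein of sterol efflux, had 12, 27 and 5 in MyD88ko LPS, 49, 42 and 40 in MyD88ko untreated, 44, 57 and 77 in wt LPS and 62, 44 and 81 in wt untreated libraries. The MyD88ko LPS libraries were the lowest, and Apoe was lower than in MyD88ko untreated cells (-1.78 ± 0.45, adjusted p = 0.022) and than in wt LPS cells (-2.18 ± 0.45, adjusted p = 0.0126). Ch25h, which makes 25-hydroxycholesterol, an oxysterol that restrains SREBP, had 4, 13 and 9 in MyD88ko LPS against 36, 43 and 39 in wt LPS libraries (-2.18 ± 0.51, adjusted p = 0.0345). Cyp7b1, the oxysterol hydroxylase that clears it, was lower in MyD88ko than in wt cells both untreated (-1.44 ± 0.34, adjusted p = 0.0346; -1.82 and adjusted p = 0.214 with wt untreated replicate 2 alone) and with LPS (-1.79 ± 0.34, adjusted p = 0.00737).

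Among 16 other fatty acid synthesis genes, 2 rose and 2 fell in wt cells with LPS, beside 9.55% and 9.66% of all genes. Tecr, the last reductase of chain elongation, had 1279, 947 and 1044 in wt LPS against 415, 342 and 418 in wt untreated libraries (log2 fold change 1.47 ± 0.21, limma adjusted p = 9.08e-05), and Me1, a malic enzyme that supplies NADPH, had 535, 540 and 503 against 982, 1153 and 1204 (-1.08 ± 0.18, adjusted p = 0.000319). Both pairs of groups are far apart, and both calls held without any single library and with wt untreated replicate 2 alone (1.66, adjusted p = 0.00311, and -1.13, adjusted p = 0.00996). Slc25a1, the citrate carrier, rose (0.85 ± 0.27, adjusted p = 0.0334), and Acsl4, an acyl-CoA synthetase for arachidonate, fell in MyD88ko (-0.99 ± 0.25, adjusted p = 0.0228) and in wt cells (-0.92 ± 0.25, adjusted p = 0.0144). Of 14 glycerolipid genes, Agpat1 and Agpat2, acyltransferases, rose (1.01 ± 0.27, adjusted p = 0.0125, and 1.17 ± 0.34, adjusted p = 0.0196) and Pcyt1a, of phosphatidylcholine synthesis, fell (-0.82 ± 0.20, adjusted p = 0.00781) in wt cells. Of 17 fatty acid oxidation genes, 3 rose and 1 fell in wt cells, among them the carnitine carrier Slc25a20 (1.18 ± 0.33, adjusted p = 0.0166), and 2 fell in MyD88ko cells, Decr1 (-0.91 ± 0.20, adjusted p = 0.01) and Cpt1c (-0.91 ± 0.24, adjusted p = 0.0274). Of the 19 list genes called in wt cells, 4 held without any single library (Por, Tecr, Me1 and Nr1h2) and 5 were called with wt untreated replicate 2 alone (Tecr, Me1, Pcyt1a, Agpat1 and Ech1). With that library alone, Nr1h2 was at 1.18 (adjusted p = 0.11) and Por at 1.34 (adjusted p = 0.0797). Of the 9 list calls in the other comparisons, 0 held when each library was left out in turn, and the highest adjusted p among those refits was 0.145, for Cpt1c.

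The authors' deposited table called 1 member with LPS in wt cells, Idi1 (adjusted p = 0.0013, fold change 0.234), and 1 in MyD88ko against wt untreated cells, Elovl6 (adjusted p = 0.0142, fold change 0.181), and it called 0 with LPS in MyD88ko cells and 0 in MyD88ko against wt with LPS. Over all genes, the authors' deposited tables called 106 of 14033 with LPS in MyD88ko cells and 631 of 14514 with LPS in wt cells. In MyD88ko against wt they called 230 of 14340 untreated and 77 of 14143 with LPS.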

How the data were processed

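Messenger RNA of 12 libraries was read at transcript ends (3′ QuantSeq, Ion Proton); per the labels, RNA had a RIN above 7. TopHat2, Bowtie2, DESeq and mm10 are listed in the submitters' processing notes, with no version or role. The deposited values are scores, that is, read counts per gene, normalized, that the authors rounded to whole numbers, so no count model was used. The deposited tables also give the authors' p-value and adjusted p-value per gene, a fold change as a ratio of group means and its log2. How reads matching more than 1 gene, such as paralogues, were counted is not given in the sources used here.

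Tables were joined by gene identifier; of 166719 values given more than once, 0 differed. The scale was log2(value + 1), and the tool limma 3.58.1 (R 4.3.3): limma-trend, robust empirical Bayes, 1 fit over 12 libraries, 8 residual degrees of freedom. A gene was tested if all libraries gave a value and some group averaged 10 or more. Calls are two-sided at a Benjamini-Hochberg adjusted p under 0.05 over 12385 genes, in 5 comparisons. Within groups, libraries correlated across genes at r = 0.921 to 0.958; genes are not independent replicates. Fold changes on this scale understate changes of low values. The script was tested on simulated data. The members, lists and tests were chosen with earlier results of these data known. Full statistics are given for called members and for up to 2 members with the smallest p in each role without a call, and up to 4 genes per list (some list genes are not reported here); other members get values or ranges. Promoters came from RefSeq (GRCm38.p6). Alternatives were pseudocounts of 0.5 and 5, no low-value filter and a mean of at least 50, TMM rescaling, no trend, only the groups compared, a replicate block, each library left out, and wt untreated replicate 2 alone. After the data were seen, the same alternatives were run for called list genes.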

Additional observations from a re-analysis of the deposited data

How the results depend on the processing

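None of the alternatives turned the sign of a call. There were 3511 member values (a gene in a comparison under an alternative). Of these, 3415 stayed on the same side of the threshold, 22 passed it newly and 74 lost it. Most of the 3415 were not called to begin with, and only a called value can lose its call. Of 21 alternatives, 7 kept the call of Acaca, the fewest, and 20 kept those of Elovl6 and of Idi1 in wt cells. For list genes, called ones only, 459 values stayed and 128 lost the call, so these counts are not comparable with the 3415. Limma without a trend called 0 members in MyD88ko with LPS, 2 in wt with LPS and 1 in MyD88ko against wt untreated, and over all genes 425 in MyD88ko with LPS, 74 and 112 in the genotype comparisons untreated and with LPS, and 0 in the difference of responses, where pseudocount 0.5 and the mean of at least 50 also called 0. Fitting only the groups compared called 2 members in MyD88ko with LPS, 7 in wt with LPS and 1 in MyD88ko against wt untreated. Over all genes it called 636, 2143 and 163 in the same order. In wt with LPS, that limma fit lost Acaca (adjusted p = 0.0617), Acly (0.0624) and Fdft1 (0.0648) and added Ebp (0.0124). With wt untreated replicate 2 alone, 2 members were called in MyD88ko with LPS, 2 in wt with LPS and 0 in MyD88ko against wt untreated, and over all genes 969 in wt with LPS, 37 in MyD88ko against wt untreated and 14 in the difference; the member medians were 0.08, -0.09 and -0.14. Leaving out each library called 0 to 2 members in MyD88ko with LPS, 3 to 11 in wt with LPS, 1 to 4 and 0 to 1 in the genotype comparisons untreated and with LPS, and 0 in the difference, and over all genes 337 to 791, 1570 to 2729, 64 to 412, 85 to 197 and 0 to 44. The cause of these shifts was not tested, beyond fewer libraries giving less power by construction.

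Same-numbered libraries paired little over all genes: their deviations correlated at -0.114 to 0.171. The highest value, 0.171, was that of replicate 2 in wt LPS and wt untreated. Those libraries also had the highest mesenchymal sums of their groups, 116124 and 100347. With a replicate block, 1, 10, 2, 0 and 0 members were called in the same order of comparisons, and 763, 2389, 278, 206 and 2 of all genes. In wt with LPS, the block lost Acaca (adjusted p = 0.0525) and added Mvd (0.0418) and Ebp (0.0413). Depth of 2.5 to 5.3 megareads limits members with low values, such as Tm7sf2, Insig1, Fads2 and Elovl6, for which counting error is largest relative to the value.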
